A study of Mus musculus with 8 samples.

Results

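The NF-κB pathway was examined through 10 genes in mouse kidney tubuloids: Nfkbiz, Nfkbia, Nfkbib, Nfkbie, Nfkb1, Nfkb2, Rela, Relb, Bcl3 and Tnfaip3. They were found by gene symbol among the 24063 genes of the deposited tables, all 10 were listed for all 8 libraries (Tnfaip3 at 0 in DOX 19), and transcripts that shared a symbol were summed. Nfkbiz was chosen because its counts differed between the treated and control tubuloids, and the other 9 genes were added as its family. The values of Nfkbiz in that comparison are therefore a description and carry no test here.

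Tubuloids are hollow epithelial structures grown in Matrigel from fragments of kidney tubules, here from mice of postnatal day 7 to 10 per the labels (the study's methods give a partly younger range). All 8 cultures carried the same alleles, Pkd2fl/fl, Pax8rtTA, TetOCre and mTmG, in which doxycycline switches on a Cre recombinase in cells that use the Pax8 promoter, deletes Pkd2 and turns a membrane reporter from red to green. From day 3 of culture, 4 cultures received doxycycline (DOX) and 4 received DMSO as the control, each for 3 days, and RNA was taken at 7 days. The study's methods do not say that the doxycycline was dissolved in DMSO. No culture received doxycycline without the floxed alleles and Cre, so the loss of Pkd2 and the drug itself cannot be told apart, and cells that do not use the Pax8 promoter, such as those of undifferentiated structures, keep Pkd2. The numbers in the library names (DMSO 15, 20, 3 and 5, DOX 9, 21, 19 and 12) are the submitters' own and pair no cultures.

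NF-κB is a family of dimeric transcription factors built from RelA, RelB, c-Rel, p50 and p52, the last 2 cut from the precursors that Nfkb1 and Nfkb2 encode. In resting cells the inhibitors IκBα (Nfkbia), IκBβ (Nfkbib) and IκBε (Nfkbie) hold the dimers in the cytoplasm until IκB kinase marks them for destruction, and several of these inhibitors are themselves NF-κB targets, which closes a negative feedback loop. IκBζ (Nfkbiz) and Bcl-3 (Bcl3) are atypical members that act in the nucleus, where they bind p50 or p52 at the promoters of selected genes, and A20 (Tnfaip3) is a ubiquitin-editing enzyme that dampens signalling upstream of the kinase. In epithelia of the kidney and other organs the pathway is known for its response to injury, to cytokines such as interleukin-1, interleukin-17 and tumour necrosis factor, and to bacterial products.

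Nfkbiz lies on chromosome 16 (GRCm38, 55811375-55838954, minus strand), and the tables list 3 transcripts of it. They differ in which start codon they hold, so the beginning of the coding sequence is shown for both starts, read from the GENCODE M21 transcripts of that build with the start codon in capitals. The first stretch is the coding part of an exon present in NM_030612 and NM_001159394 and missing from NM_001159395 (chr16:55821768-55822053, minus strand, 286 bases). The second is the beginning of the coding sequence of NM_001159395, which the longer forms hold as part of an internal coding exon of 140 bases (chr16:55819567-55819695, minus strand, 129 bases).
NM_030612: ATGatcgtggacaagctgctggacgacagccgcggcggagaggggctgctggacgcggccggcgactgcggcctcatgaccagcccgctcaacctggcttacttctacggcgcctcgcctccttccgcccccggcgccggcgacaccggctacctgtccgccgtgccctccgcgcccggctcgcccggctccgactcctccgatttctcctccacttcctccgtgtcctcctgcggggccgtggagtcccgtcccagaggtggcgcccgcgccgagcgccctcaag
NM_001159395: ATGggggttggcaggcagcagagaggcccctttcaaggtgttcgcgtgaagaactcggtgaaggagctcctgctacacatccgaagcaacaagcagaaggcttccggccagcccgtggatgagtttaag

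In GENCODE M21 the coding sequence is 2184 bases (728 codons) in NM_030612 and NM_001159394 and 1887 bases (629 codons) in NM_001159395, so the shorter product lacks the amino-terminal stretch encoded above. NM_001159394 encodes the same protein as NM_030612 from another first exon.

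κB sites, the DNA motif that NF-κB dimers bind, are a well-known feature of the promoters of the feedback genes. RefSeq windows of 300 bases around a transcript start (250 before it and 50 after, GRCm38.p6) were at hand for 7 of the 10 genes, with 10 windows in all, and were searched on both strands for the κB consensus of 10 bases. A match was found in 7 of the 10 windows, from 5 of the 7 genes (Nfkbia, Nfkbie, Nfkb2, Bcl3 and Tnfaip3), against 8.46% of 32851 windows of all genes. Nfkb2 gave 3 of these 7 windows, of which 2 overlap and hold 1 site in common, so the windows are not independent. The windows of Nfkbib and Rela and the second Tnfaip3 window held none, and Nfkbiz, Nfkb1 and Relb were not in the table. For 3 of the 5 genes the 150 bases before the start are shown, with matches in capitals, as examples with 1, 2 and 3 matches there. They come from chr12:55492648-55492797 (minus strand) for Nfkbia, chr10:19015411-19015560 (minus strand) for Tnfaip3 and chr19:46304587-46304736 (plus strand) for Nfkb2.
Nfkbia: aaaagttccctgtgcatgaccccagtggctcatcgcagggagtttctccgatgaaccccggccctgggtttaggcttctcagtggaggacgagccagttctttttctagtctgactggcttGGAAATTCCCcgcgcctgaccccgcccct
Tnfaip3: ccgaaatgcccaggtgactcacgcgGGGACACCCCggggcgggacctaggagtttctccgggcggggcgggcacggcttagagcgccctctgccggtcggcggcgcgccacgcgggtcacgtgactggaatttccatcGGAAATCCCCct
Nfkb2: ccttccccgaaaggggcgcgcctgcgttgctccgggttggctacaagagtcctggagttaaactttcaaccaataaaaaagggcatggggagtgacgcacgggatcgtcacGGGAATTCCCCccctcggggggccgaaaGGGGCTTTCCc

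Counted back from the start, the Nfkbia match began at base -29, the Tnfaip3 matches at -125 and -12, and the Nfkb2 matches at -39, -38 and -11, the first 2 of which overlap. A match describes the letters only and says nothing of binding in these cells.

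The libraries held 63922677 to 102716313 deposited counts each. DMSO 20 and DOX 19 stood apart, with 13243 and 13599 genes detected, while the other 6 libraries detected 17054 to 17903. The targeted gene, Pkd2, was measured at 4813 to 7538 normalised counts with DMSO and 4136 to 5952 with DOX, groups that overlapped. Its log2 fold change was -0.31 with an SE of 0.21 (adjusted p = 0.999 in DESeq2, exact two-sided permutation p = 0.143 over 70 assignments). These counts cover the whole transcript and do not single out the floxed part. By western blot, the study reported significantly less of the Pkd2 protein product in tubuloids given doxycycline, with some still present. Epithelial markers were present in every library (summed 675 to 2977 TPM, a length-corrected share of each library), as were stromal markers (298 to 3735 TPM). Of 9 leukocyte markers 6 had a mean under 1 TPM, among them Csf1r, Itgam and Cd3e, while Cd14, Cd68 and Ptprc had means of 25.2, 7.01 and 5.38 TPM, and of 5 endothelial markers 4 did, including Pecam1 and Cdh5. In bulk RNA, fewer cells of a type and less RNA per cell cannot be told apart.

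On normalised counts, Nfkbiz was lower in every DOX library than in any DMSO library. Its normalised count, the count divided by a size factor for the library, was 7510 in DMSO 15, 13647 in DMSO 20, 9505 in DMSO 3 and 14709 in DMSO 5, and it was 3503 in DOX 9, 4298 in DOX 21, 4745 in DOX 19 and 6170 in DOX 12. The group means were 11342 ± 3401 with DMSO and 4679 ± 1119 with DOX (SD, n = 4 each), and the highest DOX library stayed below the lowest DMSO library. The log2 fold change was -1.28 (SE 0.31, 95% interval -1.88 to -0.67), 2.42-fold lower with DOX. The DESeq2 adjusted p that placed it on the list was 0.0309, and the same contrast gave an adjusted p of 0.999 in edgeR, where no gene passed. Leaving out libraries in turn kept the size between -1.44 and -1.13, but the adjusted p stayed under 0.05 only without DMSO 15 or without DOX 12, and ranged from 0.0683 to 0.184 without each of the other 6. The marker sums overlapped between the groups, with 675 to 2977 TPM against 886 to 1942 TPM for epithelial genes and 17.5 to 74.2 TPM against 8.67 to 43.7 TPM for leukocyte genes (DMSO against DOX). The stromal sum was 298 to 3735 TPM against 644 to 1019 TPM, and within DMSO it was highest, at 3735 TPM, in DMSO 15, the library with the lowest Nfkbiz, and lowest, at 298 TPM, in DMSO 5, the library with the highest. The leukocyte sum ran the other way within DMSO, lowest in DMSO 15 (17.5 TPM) and highest in DMSO 5 (74.2 TPM). The epithelial sum was also lowest in DMSO 15 (675 TPM). Within DOX, the library with the lowest Nfkbiz, DOX 9, had the highest leukocyte sum (43.7 TPM). DOX 12, with the highest Nfkbiz, had the highest stromal sum (1019 TPM). Within DMSO, Cd14, Cd68 and Ptprc were lowest in DMSO 15, while Csf1r, Itgam and C1qa, each under 1 TPM, were highest there. The leukocyte means were 52.4 ± 25.2 TPM with DMSO and 23.9 ± 14.8 TPM with DOX (SD, n = 4 each). The endothelial means were 46.3 and 94.4 TPM, and those of Nfkbiz on this scale 75.6 and 32.6 TPM. The part of these cell types in the Nfkbiz values was not tested.

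**Figure D1:**
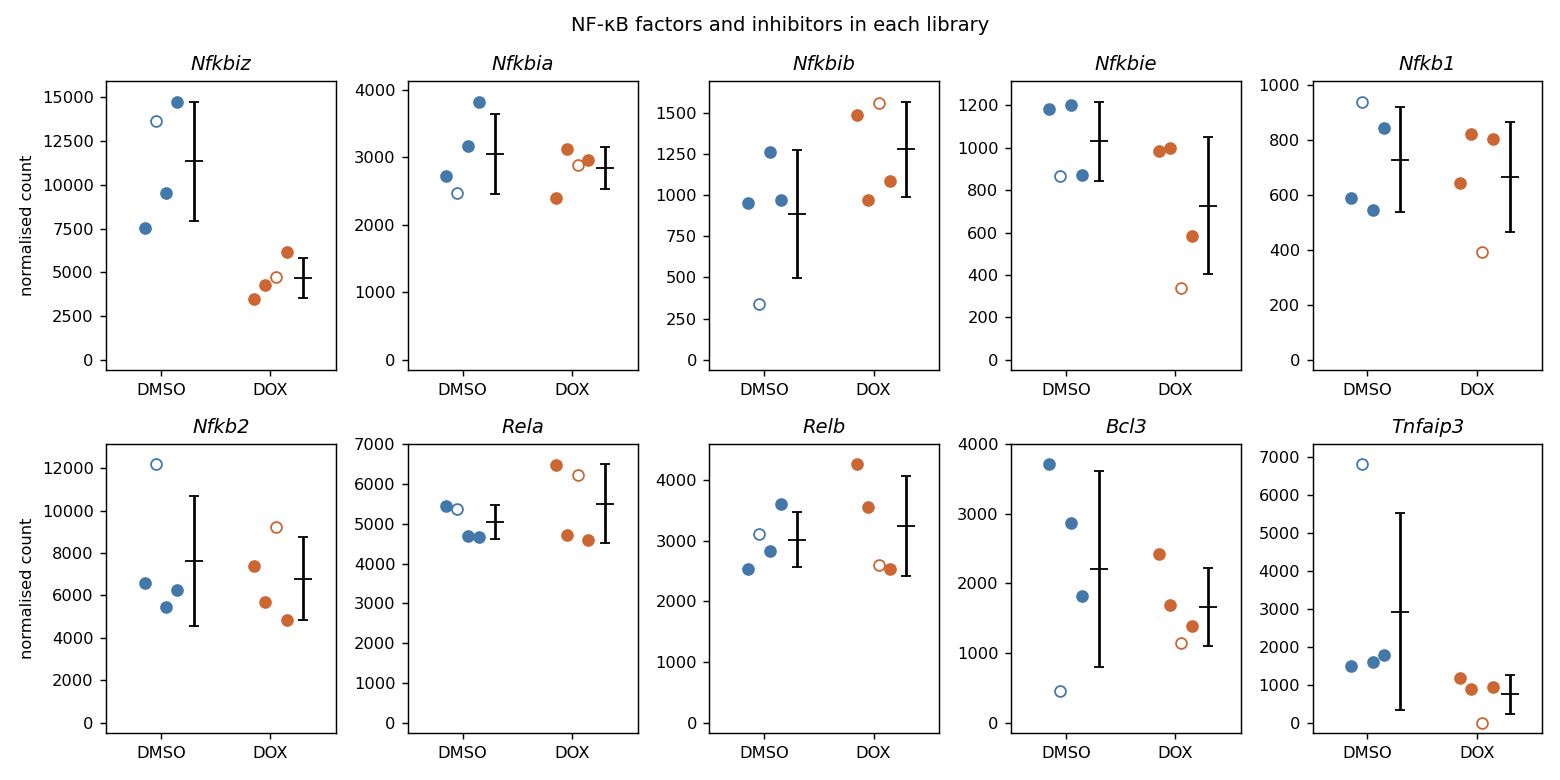
Normalised count of each gene in each library (y axis, linear, from about 0), with DMSO in blue and DOX in orange, open circles for DMSO 20 and DOX 19, and the mean with its SD (n = 4) beside the points. Nfkbiz and Tnfaip3 are the genes whose DOX points all lie below their DMSO points.

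The other 9 genes gave no call between DOX and DMSO. A gene was called when its adjusted p was at most 0.05 and its change at least 1.5-fold, and 0 of the 9 met this in DESeq2 (0 at an unadjusted p under 0.05) and 0 in edgeR (also 0 at an unadjusted p under 0.05). Over all genes 25 of 17011 were called (0.147%), 11 of them lower with DOX (0.0647%), and 4.67% of 19268 genes had an unadjusted p under 0.05, so 0 calls among 9 genes is near the background. Of the 9, 6 had a negative and 3 a positive log2 fold change, with a median of -0.13, beside -0.07 over all genes tested. Each adjusted p was 0.999 in DESeq2.

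Among the DNA-binding subunits, Rela had the lowest variation within each group. Its product p65 carries the main activation domain of the classical dimer. The normalised counts of Rela were 5458 in DMSO 15, 5375 in DMSO 20, 4693 in DMSO 3 and 4680 in DMSO 5, beside 6476 in DOX 9, 4714 in DOX 21, 6239 in DOX 19 and 4599 in DOX 12. The groups overlapped, and the coefficient of variation was 8.37% within DMSO and 17.9% within DOX, beside 30.0% and 23.9% for Nfkbiz. The log2 fold change of Rela was 0.12 (95% interval -0.24 to 0.49), an interval that leaves out a change of 1.5-fold in either direction (0.58 on this scale), as it did in 6 of 8 fits with 1 library left out, the exceptions being those without DOX 12 (upper bound 0.592) and DOX 21 (0.589).

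Relb, the partner of p52 in the alternative pathway, ranged from 2534 to 3606 normalised counts with DMSO and from 2540 to 4260 with DOX, with a log2 fold change of 0.10 (95% interval -0.39 to 0.59). Nfkb2, the precursor of p52, ranged from 5467 to 12178 with DMSO and from 4833 to 9242 with DOX (log2 fold change -0.17, 95% interval -0.87 to 0.53). The highest value of Nfkb2 in each group came from the library of that group with low gene detection, 12178 in DMSO 20 and 9242 in DOX 19. Nfkb1, the precursor of p50, was measured at 544 to 940 normalised counts with DMSO and 391 to 822 with DOX (log2 fold change -0.13, 95% interval -0.81 to 0.55). The groups overlapped for each of these 3 genes. The remaining subunit, c-Rel (Rel), had a mean of 1.10 TPM, and its log2 fold change was -0.07 (SE 0.59).

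None of the classical inhibitors was called, and their intervals overlapped each other. Nfkbia, which encodes the fast feedback inhibitor IκBα, was measured at 2723, 2478, 3163 and 3824 normalised counts in DMSO 15, 20, 3 and 5, and at 2399, 3119, 2879 and 2960 in DOX 9, 21, 19 and 12. The groups overlapped, and the log2 fold change was -0.10 (95% interval -0.50 to 0.30), which leaves out a change of 1.5-fold, but in 5 of 8 fits with 1 library left out (without DMSO 15, DMSO 20, DOX 12, DOX 19 or DOX 21) the interval reached past it, down to -0.61. Nfkbib ranged from 341 to 1264 with DMSO and from 971 to 1557 with DOX (log2 fold change 0.53, 95% interval -0.31 to 1.38), and its lowest value was that of DMSO 20, without which the log2 fold change was 0.26 (0.17 without DMSO 20 and DOX 19). Nfkbie ranged from 868 to 1199 with DMSO and from 338 to 1000 with DOX (log2 fold change -0.51, 95% interval -1.30 to 0.28), and its lowest value was that of DOX 19, without which it was -0.26. For these last genes the intervals hold changes of more than 1.5-fold, so a difference of that size could have gone undetected here.

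Bcl3, the other nuclear IκB of the group, had overlapping groups. It was measured at 3708, 447, 2872 and 1819 normalised counts in DMSO 15, 20, 3 and 5, and at 2423, 1685, 1143 and 1391 in DOX 9, 21, 19 and 12. DMSO 20 was the lowest library for Bcl3 while it was among the highest for Nfkbiz. The log2 fold change was -0.41 (95% interval -1.58 to 0.76), an interval that holds the -1.28 of Nfkbiz. It was -0.041 without DMSO 15 and -0.76 without DMSO 20, -0.26 without DMSO 3 or without DOX 19, and -0.65 without DOX 9.

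Tnfaip3 was the other gene whose groups did not overlap. Its normalised counts were 1482 in DMSO 15, 6811 in DMSO 20, 1594 in DMSO 3 and 1795 in DMSO 5, and 1166 in DOX 9, 881 in DOX 21, 0 in DOX 19 and 950 in DOX 12. The extreme values in each group were those of the libraries with low gene detection, the highest in DMSO 20 and 0 counts in DOX 19, where a count of 0 allows up to 3 counts. The log2 fold change was -1.96 (SE 1.28, 95% interval -4.46 to 0.54), with a wider error than that of Nfkbiz, and the unadjusted p was 0.124. With DMSO 20 and DOX 19 left out together the log2 fold change was -0.68, with an unadjusted p of 0.00355 and an adjusted p of 0.247, without DOX 19 alone it was -1.54 with an unadjusted p of 0.0149 and an adjusted p of 0.842, and without DMSO 20 alone it was -1.11 with an adjusted p of 0.925. Groups without overlap were seen for 1 of these 9 genes and for 2.72% of 17550 genes with a mean normalised count of at least 2.

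**Figure D2:**
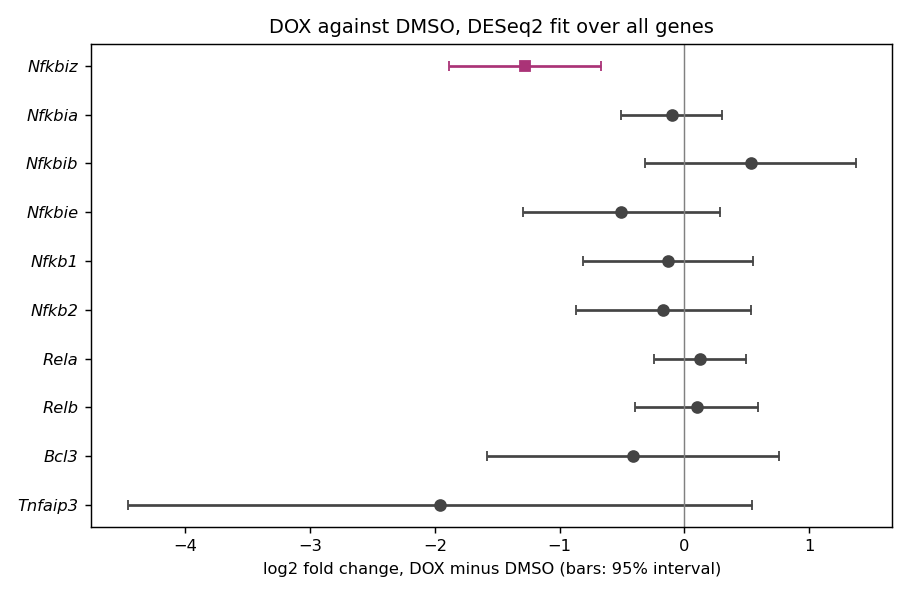
Log2 fold change of each gene, DOX minus DMSO, from the DESeq2 fit over all genes (x axis, log2 scale), with 95% intervals (n = 4 libraries per group). Nfkbiz (square), which was chosen on this contrast, lies at -1.28, the intervals of the other 9 genes span 0, and that of Tnfaip3 is the widest, from -4.46 to 0.54.

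The 3 transcripts of Nfkbiz carried nearly equal counts, and their shares differed between DOX and DMSO by less than the spread between libraries. NM_030612 was given 2550, 3612, 3466 and 4949 counts in DMSO 15, 20, 3 and 5, and 1407, 1393, 1422 and 2935 in DOX 9, 21, 19 and 12. NM_001159394 was given 2535, 3582, 3421 and 4919 counts in the same DMSO libraries, and 1393, 1359, 1422 and 2926 in the DOX libraries. NM_001159395 was given 2400, 3464, 3328 and 4727 with DMSO, and 1326, 1341, 1362 and 2818 with DOX. The share of NM_030612 in the summed count was 33.9% ± 0.08 with DMSO and 33.9% ± 0.15 with DOX (SD, n = 4 each), and NM_001159395 took 32.4% ± 0.23 and 32.4% ± 0.26. Near-equal counts arise where a read is counted for each transcript that overlaps it, and the same near-equality held for the other genes with several transcripts: the lowest mean count was 98.0% of the highest for Nfkb2 and 99.3% for Tnfaip3, and the counts of Relb were all but identical, beside 95.5% for Nfkbiz. Counted in that way, the summed counts of these 4 genes exceed the reads behind them.

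Read in this way, the small gaps between the transcripts hold the reads that fall only in the sequence one of them lacks. The FPKM values (counts scaled by length and depth) imply lengths of 3855, 3625 and 3507 bases for NM_030612, NM_001159394 and NM_001159395, and the difference of 348 bases between the first and the last equals the exon shown above with its bases before the start codon. The gap between these 2 transcripts was 150, 148, 138 and 222 counts in DMSO 15, 20, 3 and 5, and 81, 52, 60 and 117 in DOX 9, 21, 19 and 12. This was 4.61% ± 0.87 of the NM_030612 count with DMSO and 4.42% ± 0.91 with DOX (SD, n = 4 each), and the groups overlapped. The lowest value was 3.73% in DOX 21 (exact 95% interval 2.80 to 4.87) and the highest was 5.88% in DMSO 15 (5.00 to 6.87). The exon makes up 9.03% of the transcript's length, which is not a like measure. A read that also reaches a neighbouring exon is counted for NM_001159395 as well and drops out of the gap. The exon with the first start codon was thus covered in every library, and the shares differed between the groups by less than their spread.

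The gap between NM_030612 and NM_001159394 is a net difference, since NM_030612 has upstream exons and NM_001159394 has 23 bases of its own at the start of its internal first exon. By the implied lengths NM_030612 is 230 bases longer on balance, 5.97% of its length. In GENCODE M21 it is 488 bases longer (4115 against 3627 bases), since the counted forms of NM_030612 and NM_001159395 were each 260 bases shorter than the GENCODE forms. The gap was 15, 30, 45 and 30 counts in DMSO 15, 20, 3 and 5, and 14, 34, 0 and 9 counts in DOX 9, 21, 19 and 12. In DOX 21 it was 2.44% of the NM_030612 count (exact 95% interval 1.7 to 3.39), the highest share, while in DOX 19 both transcripts had 1422 counts, a net gap of 0 (exact 95% upper limit 0.259% if read as a count of 0). These intervals cover counting error only. The groups overlapped, and the counts are too low to compare the use of the upstream start between DOX and DMSO beyond that.

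**Figure D3:**
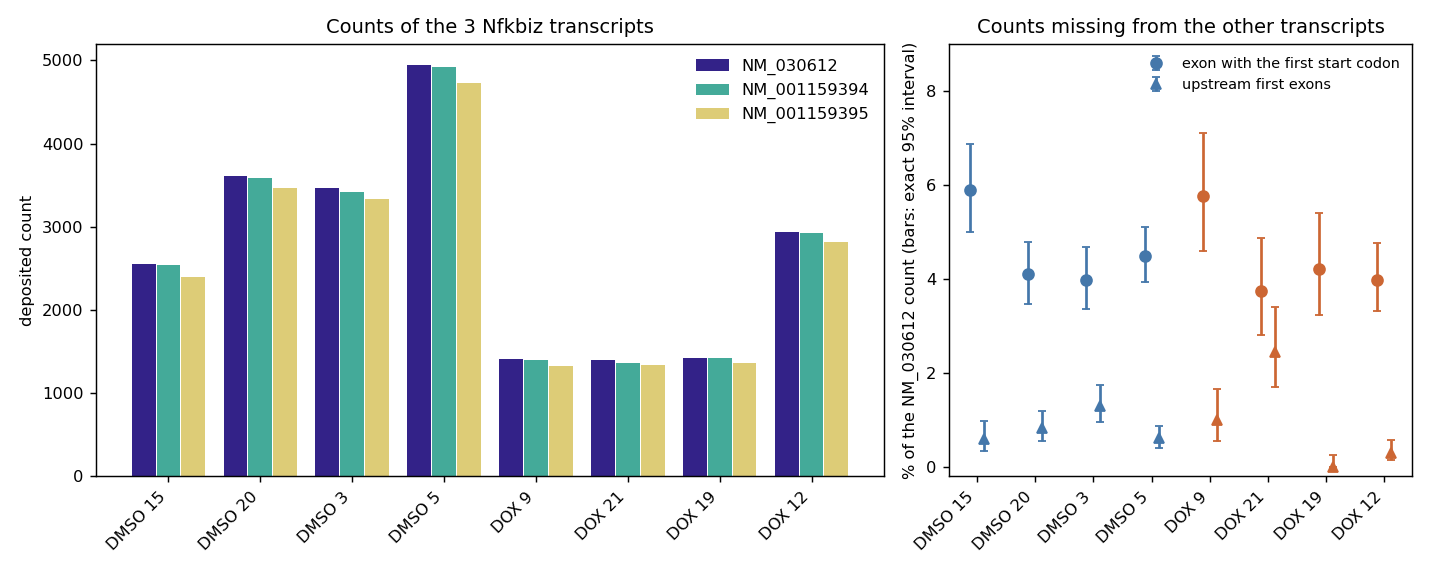
Left, the deposited counts of the 3 Nfkbiz transcripts in each library (bars from 0). Right, the counts given to NM_030612 and not to NM_001159395 (circles) or NM_001159394 (triangles), as a percentage of the NM_030612 count with exact 95% intervals, DMSO in blue and DOX in orange. Over both groups the circles lie between 3.73% and 5.88%.

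The order of the 10 levels depends on whether transcripts are summed. Levels are compared between genes as TPM, which corrects for length. Summed over transcripts, Nfkb2 was the highest at 57.1 ± 20.6 TPM (SD, n = 8), followed by Nfkbiz at 54.1 ± 31.7, Rela at 47.3 ± 6.77, Nfkbia at 45.6 ± 9.91, Relb at 34.8 ± 8.11, Bcl3 at 24.9 ± 11.4, Nfkbib at 13.4 ± 4.65, Tnfaip3 at 10.4 ± 12.3, Nfkbie at 8.70 ± 2.46 and Nfkb1 at 4.20 ± 1.43. With 1 transcript per gene, which does not add the same reads more than once, Rela came to the top at 47.3 TPM with Nfkbia next at 45.6, Bcl3 took the third place at 24.9, and Nfkb2, Nfkbiz and Relb followed at 19.4, 17.4 and 17.4. Rela and Nfkbia could not be placed in order, since each was the higher in 4 of 8 libraries, and Nfkbiz was above Relb in 4 of 8. On the summed scale Nfkbie was above Nfkb1 in 8 of 8 libraries, while Tnfaip3 was above Nfkbie in only 2 of 8, and without DMSO 20 its mean was 6.20 TPM.

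The 1-transcript level of Nfkbiz ran from 7.42 to 34.9 TPM across the 8 libraries. On the summed scale it was 43.2, 95.6, 55.3 and 108.5 TPM in DMSO 15, 20, 3 and 5, and 22.9, 28.2, 30.3 and 48.8 in DOX 9, 21, 19 and 12. Here the groups overlapped, with 48.8 TPM in DOX 12 above 43.2 in DMSO 15 (8679 against 7485 raw counts). This scale divides by each library's sum of length-corrected counts and not by the size factors. The group means were 75.6 ± 31.3 TPM with DMSO and 32.6 ± 11.3 TPM with DOX (SD, n = 4 each), which put Nfkbiz in place 1 of the 10 genes with DMSO and place 5 with DOX. With 1 transcript per gene it was in place 4 with DMSO (24.4 TPM) and place 7 with DOX (10.5 TPM).

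**Figure D4:**
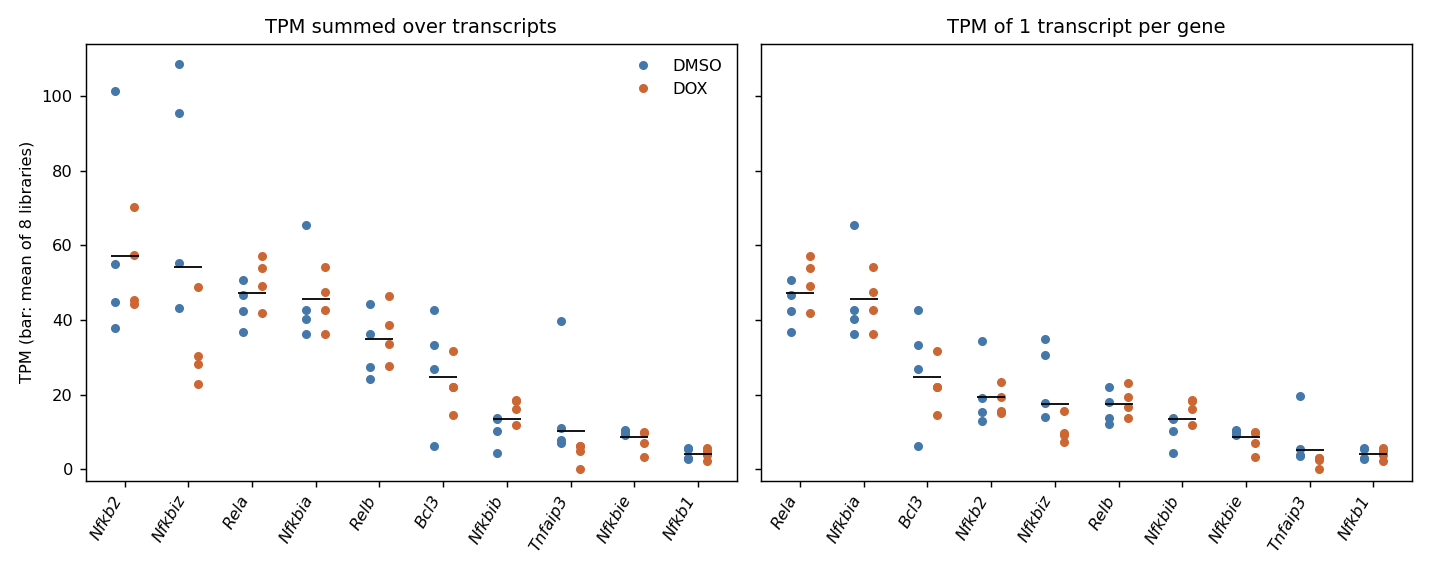
TPM of the 10 genes in each library (y axis, linear), with transcripts summed (left) and with the transcript of the highest mean count (right), DMSO in blue, DOX in orange and a bar at the mean of 8 libraries. Nfkbiz lies in the second place at 54.1 TPM on the left and in the fifth at 17.4 TPM on the right.

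Nfkbiz was chosen for the difference between DOX and DMSO, which a correlation with the other 9 genes over libraries of both groups includes. On the log2(normalised count + 1) scale, with that difference left in, the largest values of Pearson's r in the 6 libraries with full gene detection were 0.80 for Tnfaip3 and 0.80 for Nfkbia, and the other 7 genes had r between -0.56 (Rela) and 0.10 (Bcl3). Spearman's rho was 0.83 for Tnfaip3 and 0.77 for Nfkbia. These values carry no test, since the libraries come from both groups and Nfkbiz was chosen on the difference between them. Without DMSO 5 and DOX 9, the libraries farthest from the median of Nfkbiz, r was 0.92 for Tnfaip3 and -0.13 for Nfkbia over 4 libraries. With group means taken away, over all 8 libraries, r was 0.02 for Tnfaip3, 0.42 for Nfkbia, 0.49 for Nfkb1 and -0.69 for Bcl3, and the other 5 lay between -0.55 (Nfkbie) and 0.09 (Nfkb2).

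After the group means were taken away, the genes most like Nfkbiz over the 8 libraries, among 13247 genes with a mean normalised count of at least 100, were Bcl9 (r = 0.99), Haghl (0.97), Supt20 (0.97), Trp53bp1 (0.97) and Ttc4 (0.96). No other member of the family was near the top of that order, the closest being Nfkb1 with r = 0.49 at place 1958. These are the extremes of many genes over 8 libraries that also share differences in gene detection, and in the 6 libraries with full detection, without taking away group means, r with Nfkbiz was 0.58 for Bcl9, 0.95 for Haghl, 0.70 for Supt20, 0.33 for Trp53bp1 and 0.56 for Ttc4.

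Upstream of the factors, the kinases and adaptors of the pathway were expressed and gave no call. Over all genes tested, 25 of 17011 were called and 899 had an unadjusted p under 0.05. For this list and those that follow, 0 calls is thus near the background. Of 9 genes of the IκB kinase list 0 were called in DESeq2 or edgeR (0 at an unadjusted p under 0.05), with a median log2 fold change of 0.06 that lay between -0.23 (without DOX 19) and 0.13 (without DMSO 5) with 1 library left out. Ikbkg, the regulatory subunit NEMO, had a mean of 85.7 TPM and a log2 fold change of 0.19 (SE 0.24), and the catalytic subunits Chuk and Ikbkb had means of 79.0 and 53.3 TPM and log2 fold changes of -0.24 (SE 0.42) and -0.50 (SE 0.43). Of 13 adaptors 0 were called and 1 had an unadjusted p under 0.05. That gene was Irak1, a kinase of the interleukin-1 and Toll-like receptor pathway, at 23022 to 33324 normalised counts with DMSO and 35010 to 40915 with DOX, groups that did not overlap (log2 fold change 0.38, SE 0.18, DESeq2 adjusted p = 0.845). Myd88, the adaptor of these receptors, had a log2 fold change of 0.13 (SE 0.27), and Traf2, an adaptor of tumour necrosis factor receptors, 0.27 (SE 0.16).

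Receptors and ligands were measured as well. Of 13 receptors 0 were called and 2 had an unadjusted p under 0.05, beside 899 of 17011 genes tested. These 2 were Tnfrsf1b (log2 fold change 0.87, SE 0.42) and Il17ra (1.15, SE 0.58), both named after their values were seen. The most abundant receptor was Tnfrsf12a, the receptor of TWEAK, with a mean of 588 TPM and a log2 fold change of -0.27 (SE 0.24), followed by Cd40 at 118 TPM (0.28, SE 0.32) and Tnfrsf1a at 96.6 TPM (0.51, SE 0.30). Of 9 ligands with an adjusted p 0 were called and 2 had an unadjusted p under 0.05. Their median log2 fold change of -1.28 was not stable, at 0.059 with 1 transcript per gene, 0.056 with at least 10 counts in every library, 0.046 in edgeR, and between -1.59 (without DOX 21) and 0.27 (without DMSO 3) with 1 library left out. Il33, an alarmin of the interleukin-1 family and the most abundant ligand at a mean of 115 TPM, was measured at 8984 to 34394 normalised counts with DMSO and 2615 to 10387 with DOX (log2 fold change -1.28, SE 0.56, DESeq2 adjusted p = 0.825). Il1a, named after its values were seen, had 0 to 27.1 normalised counts with DMSO, while with DOX it had 16.1 in DOX 9, 350 in DOX 21, 1544 in DOX 19 and 2.13 in DOX 12 (log2 fold change 5.22, SE 1.59, DESeq2 adjusted p = 0.244). The groups overlapped, and 2 of the 4 DOX libraries carried that difference. Tnfsf11 and Tnfsf12 had log2 fold changes of 0.17 (SE 0.90) and 0.06 (SE 0.49).

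Genes known as NF-κB targets were mostly below 0 on the log2 fold change scale, and 0 were called. Of 21 tested, 17 had a negative log2 fold change and 4 a positive one, with a median of -0.78. With Ccl2 and Cxcl10, which were given no adjusted p, 17 were negative and 6 positive (median -0.67). Over all genes tested 9462 of 17011 were negative and the median was -0.07. Of the cell type markers, a negative log2 fold change was found for 5 of 5 tested leukocyte genes (median -1.58), 6 of 7 stromal genes (-0.997) and 7 of 8 epithelial genes (-0.45), and for 2 of 5 endothelial genes (0.21), and their part in the target values was not tested. Among the targets an unadjusted p under 0.05 was reached by 7, all lower with DOX (Ccl20, Cxcl5, Cxcl1, Il6, C3, Irf1 and Bcl2a1b, all but Ccl20 named after their values were seen), beside 899 of 17011 genes, 476 of them lower, and 0 were called in DESeq2 or edgeR. The number with an unadjusted p under 0.05 fell to 2 without DMSO 20 and to 3 without DMSO 3.

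Ccl20, a chemokine that epithelia make in response to interleukin-17 and tumour necrosis factor, was the most abundant of the chemokines listed, with a mean of 207 TPM. It had 1276, 23729, 6835 and 10699 normalised counts in DMSO 15, 20, 3 and 5, and 3331, 2810, 2123 and 2123 in DOX 9, 21, 19 and 12 (log2 fold change -2.03, SE 0.70, DESeq2 adjusted p = 0.429). DMSO 15 lay below all 4 DOX libraries, and it was also the DMSO library with the lowest Nfkbiz. Cxcl5, a neutrophil chemokine named after its values were seen, was also lowest in DMSO 15 among the DMSO libraries, with 871, 2700, 5025 and 7527 normalised counts with DMSO and 823, 1185, 1113 and 1181 with DOX (log2 fold change -1.91, SE 0.59, DESeq2 adjusted p = 0.257). Without DMSO 15 both genes were called. Il6, also named after its values were seen, had 95.7 to 674 normalised counts with DMSO and 0 to 79.8 with DOX, groups that did not overlap (log2 fold change -3.05, SE 1.20, DESeq2 adjusted p = 0.664).

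Further targets were also measured. Lcn2, the tubular injury marker lipocalin-2, was the most abundant target at a mean of 1178 TPM and ranged from 9443 to 121274 normalised counts with DMSO and from 4018 to 106291 with DOX (log2 fold change -0.34, SE 0.99). Bcl2l1, which encodes the survival protein Bcl-xL, had a log2 fold change of 0.27 (SE 0.27). Among 8 genes known to depend on IκBζ, 5 had a negative and 3 a positive log2 fold change (median -0.21). An adjusted p was given to 4 of them, all negative (median -0.72, between -1.29 without DOX 19 and -0.14 without DOX 12 with 1 library left out), and 0 were called, with Il6 the 1 gene at an unadjusted p under 0.05. Csf3, which encodes granulocyte colony-stimulating factor, had 66.2 to 1184 normalised counts with DMSO and 213 to 573 with DOX (log2 fold change -1.04, SE 0.75), and Ccl2, a monocyte chemokine, was given no p by the outlier filter of DESeq2, with its highest value, 2123 normalised counts, in DOX 19.

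**Figure D5:**
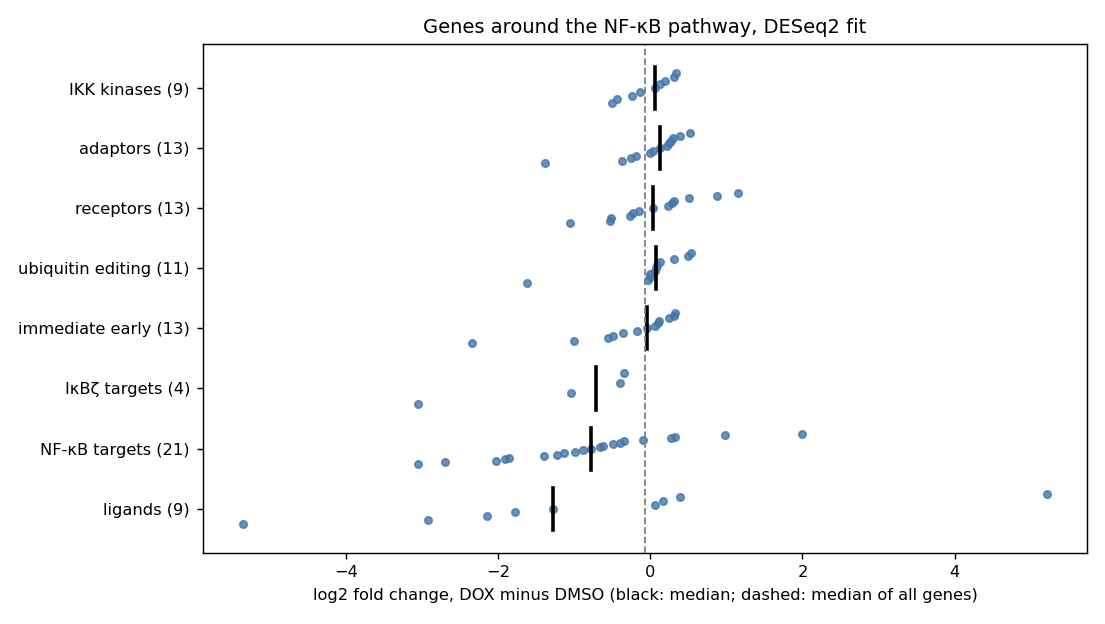
Log2 fold change, DOX minus DMSO, of the genes with an adjusted p in each list (x axis, log2 scale, number of genes in brackets), with the median of each list in black and that of all genes as a dashed line at -0.07. The medians of the ligand and target lists lie at -1.28 and -0.78 and those of the kinases, adaptors and receptors at 0.06, 0.13 and 0.04. The ligand median turns to 0.27 without DMSO 3 and 0.046 in edgeR.

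The remaining regulators gave no call either. Of 11 ubiquitin-editing genes 0 were called in DESeq2 or edgeR and 1, Tnip3, had an unadjusted p under 0.05 (log2 fold change -1.62, SE 0.64, DESeq2 adjusted p = 0.664). Tnip3, which encodes a partner of A20 and was named after its values were seen, had 691 to 3630 normalised counts with DMSO and 300 to 1089 with DOX. Its relative Tnip1 had a log2 fold change of -0.03 (SE 0.18), Rbck1, a subunit of the linear ubiquitin ligase, 0.00 (SE 0.20), and Tax1bp1, an adaptor of A20, 0.07 (SE 0.25). Nfkbid, which encodes another nuclear IκB, was measured at 89.3 to 1165 normalised counts with DMSO and 0 to 143 with DOX (log2 fold change -2.52, SE 1.25, DESeq2 adjusted p = 0.925), with its highest value in DMSO 20 and its lowest in DOX 19, as for Tnfaip3. Immediate early genes, which respond to cell handling as well as to signalling, had a median of -0.05 over 13 genes with 0 called and 1, Fos (named after its values were seen), at an unadjusted p under 0.05, and Ier3, Junb and Egr1 had log2 fold changes of -0.55 (SE 0.37), -0.05 (SE 0.36) and 0.31 (SE 0.46).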

How the data were processed

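RNA from 4 DMSO and 4 DOX tubuloid cultures was made into poly-A selected SMART-Seq v4 libraries. Per the labels and the submitters' processing notes, the authors aligned reads to mm10 (GRCm38) with STAR and counted them per RefSeq transcript with featureCounts. Versions and the settings for strand and shared reads are not given in the sources used here. The deposited tables hold raw counts, FPKM and TPM values per transcript (33068 transcripts, 24063 symbols). Counts and TPM were summed by symbol. FPKM served only to derive transcript lengths.

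Counts were tested with DESeq2 1.42.0 (Wald test, Benjamini-Hochberg adjustment, alpha 0.1) in R 4.3.3 over all genes and 8 libraries, as in the study's methods, with a call at adjusted p at most 0.05 and at least 1.5-fold. DESeq2 was used as the main test since the study used it, and edgeR 4.0.16 (quasi-likelihood) was an alternative. Both were tested on simulated data. Intervals of a log2 fold change are 95% normal intervals from its SE. Correlations are descriptions with no p. Depth was 63922677 to 102716313 counts per library, which bounds counting error only. Among the 12 pairs of libraries of 1 group the chi-square per degree of freedom was 307 or more, so no library was a copy of another. Nothing says whether cultures came from separate animals, so p-values measure the spread between these samples, which may be technical. The labels give postnatal day 7 to 10, the study's methods a partly younger range, and the labels were followed.

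The 10 genes and all gene lists were chosen with earlier results of these data known. Genes named besides the 10 were Pkd2, the 3 with the highest mean TPM in each list (every called gene would also have been named), and the 5 most like Nfkbiz. All other genes were named after their values were seen. Alternatives were edgeR, TMM factors, a minimum of 10 counts in every library, no Cook's distance filter, 1 transcript per gene, each library left out, and DMSO 20 with DOX 19 left out.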

Additional observations from a re-analysis of the deposited data

Results flagged for a closer look

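Over the 10 genes and Pkd2, 22 groups of 4 libraries were searched for a library far from the other 3 on the log2(normalised count + 1) scale, and 2 were found, where chance gives about 1.1 (1 in 20). Both were Tnfaip3. In the DMSO group, DMSO 20 stood at 6811 normalised counts beside 1482, 1594 and 1795, a gap of 0.874 of the group's range. In the DOX group, DOX 19 stood at 0 beside 881, 950 and 1166, a gap of 0.960 of the range. These are the 2 libraries with low gene detection, and they lie on opposite sides for this gene.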

How the results depend on the processing

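No paired analysis was possible because the replicate numbers in the labels are not shared between DOX and DMSO. Genes called over the whole table were 25, and 48 without the Cook's distance filter, 51 without DMSO 20 and DOX 19, 16 with at least 10 counts in every library, 0 in edgeR (476 of 15562 genes at an unadjusted p under 0.05) and 14 to 75 with 1 library left out, the highest without DMSO 15. Among the 9 genes other than Nfkbiz 0 were called in every alternative run (smallest adjusted p 0.247). Tnfaip3 was not in the fit with at least 10 counts in every library. Nfkbiz kept its direction in all 14 alternatives (-1.44 to -1.13) and lost its call in 8, namely edgeR, without DMSO 20 and DOX 19 (adjusted p 0.159) and without 6 single libraries. Directions turned for genes near 0: Nfkb1 was 0.22 without DMSO 20 and DOX 19, and with 1 library left out Nfkb1 ran from -0.25 to 0.062, Nfkb2 from -0.34 to 0.15, Nfkbia from -0.19 to 0.028 and Relb from -0.061 to 0.20. Pkd2 stayed uncalled (-0.41 to -0.20). In the target list 1 gene (Gadd45b, named after its values were seen) was called without DMSO 20 and DOX 19, and 0 to 2 with 1 library left out (Ccl20 and Cxcl5 without DMSO 15). In the ligand list 0 to 1 were called with 1 library left out (Il1a without DOX 12). Nfkbiz took place 5 of 10 in level with 1 transcript per gene, and places 1 to 3 with 1 library left out. Shares of NM_030612, NM_001159394 and NM_001159395 were 32.2%, 34.0% and 33.8% in TPM, where counts are divided by length. Without DMSO 5 and DOX 9, r with Nfkbiz turned to -0.13 for Nfkbia, 0.66 for Nfkbib, -0.90 for Nfkb1, 0.13 for Nfkb2 and 0.24 for Rela over 4 libraries, and with TMM factors it was -0.051 for Nfkb1. The cause of these shifts was not tested.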

Other observations

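Stromal genes varied widely between the DMSO cultures. Col1a1, a fibroblast collagen named after its values were seen, had 163258 normalised counts in DMSO 15, 11046 in DMSO 20, 39405 in DMSO 3 and 6448 in DMSO 5, and 11591 to 22109 with DOX, and Acta2, smooth muscle actin, had 148049 in DMSO 15 and 3882 to 25931 in the other 7 libraries. Not every stromal gene had this order: Pdgfrb, a receptor of mural cells and fibroblasts, had 41954 in DMSO 15 and was highest in DMSO 20, at 66175. Among epithelial genes the keratins Krt8, Krt18 and Krt19, the 3 most abundant of the list, were highest in DMSO 3, at 50692, 41283 and 53362 normalised counts, while others such as Pax8 and Cdh16 were highest in other libraries.

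Emcn, which encodes the sialomucin endomucin, was the 1 endothelial marker with a mean above 1 TPM (69.8 TPM), with 1511 to 3910 normalised counts with DMSO and 1715 to 9607 with DOX, while Pecam1, Cdh5, Kdr and Tek had means under 1 TPM.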
